A study of Mus musculus with 15 samples.

Results

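Long intergenic non-coding RNAs (lincRNAs) were read in mouse macrophages through the array probes that carry no gene name and are labelled only by a genome interval and a strand. A probe was a member when it was no control and its systematic name held the word lincRNA or a chromosome range. Of 55681 non-control probes, 16194 had such a name. The 577 on the X chromosome were dropped, which left 15617 members on 19 autosomes. Their coordinates are those of the probe design, which refers to the mouse build mm9. The members came from 3390 intervals, of which 1042 were probed on both strands, written F and R in the probe names. They made 4432 region strands with up to 10 probes each. The median interval was 7.45 kb long, the shortest 62 bp and the longest 7.13 Mb. Merging intervals that overlapped or lay at most 10 kb apart gave 1888 loci. Probes of the same strand share a target and were treated as repeated readings of it, not as replicates.

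LincRNAs are transcribed by RNA polymerase II between protein-coding genes and are often spliced and polyadenylated, but they do not encode a known protein. Many are present at low levels and in few cell types, and in macrophages several are induced by lipopolysaccharide (LPS), the Gram-negative cell wall component sensed by Toll-like receptor 4. Some regulate a neighbouring gene, others act elsewhere in the nucleus or cytoplasm or are precursors of microRNAs. JUNB is a subunit of AP-1, a dimeric transcription factor that LPS induces in macrophages.

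The cells were C57BL/6 bone marrow cells grown into macrophages in M-CSF. They were wild type or Junb-fl/fl Lyz2-Cre+/+, and were left untreated or given 100 ng/ml LPS for 4 h. Wild type cells were hybridised to 8 arrays, 4 per state. Knockout cells gave 4 untreated arrays and 3 with LPS. The replicates were separate wells, so p-values measure the spread between wells and not between mice. Cre is driven by Lyz2, a gene of the myeloid lineage, and sits in both Lyz2 copies. Slide 1 carried the knockout arrays and slide 2 the wild type arrays. Xist was above background on the wild type arrays only, and Ddx3y and Eif2s3y on the knockout arrays only. Junb loss, Cre insertion, sex-linked expression and slide therefore cannot be told apart in any comparison between genotypes. The LPS responses were each measured within a slide.

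The probe for Junb lay between 0.43 and 0.91 on the untreated and between 3.08 and 3.71 on the LPS-treated wild type arrays, and at the floor on all 7 knockout arrays. All levels are log2 of the processed signal over the 75th percentile of the array, raised to a floor of -4.52, so 0 marks the 75th percentile and values at the floor have no order. Log2 changes of probes at the floor in 1 state are measured on this floored scale and understate the change. That percentile ranged from 482 to 1490 in signal units. All 7 macrophage markers tested were above background on all 15 arrays, with mean levels over these arrays between 1.21 and 8.44. The marker Lyz2 differed widely by genotype. It averaged 8.83 untreated and 9.07 with LPS in wild type cells, against 0.59 and 2.11 in knockout cells. Of the markers of other cells, 3 of 6 for neutrophils and their progenitors, 2 of 5 for dendritic cells, 2 of 5 for B cells, 1 of 4 for T and NK cells and 0 of 4 for erythroid cells were above background on all 15 arrays. Their part in the results below was not tested. Arrays of a group correlated with r between 0.954 and 0.996 over probes. Deviations of the lincRNA probes from their group means were widest in wild type cells, with an SD of 0.694 in replicate 1 of the untreated arrays and 0.730 in replicate 4 of the LPS arrays. The other 13 arrays gave 0.312 to 0.525.

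Most lincRNA probes gave a weak signal or none. The members described further were selected on the scanner's detection flag: a spot had to be well above background on 3 or more arrays in any one of the 4 groups. Of the 15617 members, 6857 (43.9%) met this, so detection and level are described without a test. The other 8760 were not, and 4911 were above background on no array. Of 26392 RefSeq mRNA probes, 18307 (69.4%) met the same criterion. Per array, between 32.9% and 50.2% of the lincRNA probes were well above background, against 63.3% to 71.5% of the mRNA probes. In all, 3530 members were above background on all 15 arrays. Another 820 kept members met the criterion only in LPS-treated groups, and 727 only in untreated groups. The tests of such members between a group that met it and one that did not are tied to this selection. The 1062 kept members with 3 arrays in their best group had a median level of -4.20, and the 1102 members with 2 arrays, just outside the criterion, had a median of -4.34.

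**Figure D1:**
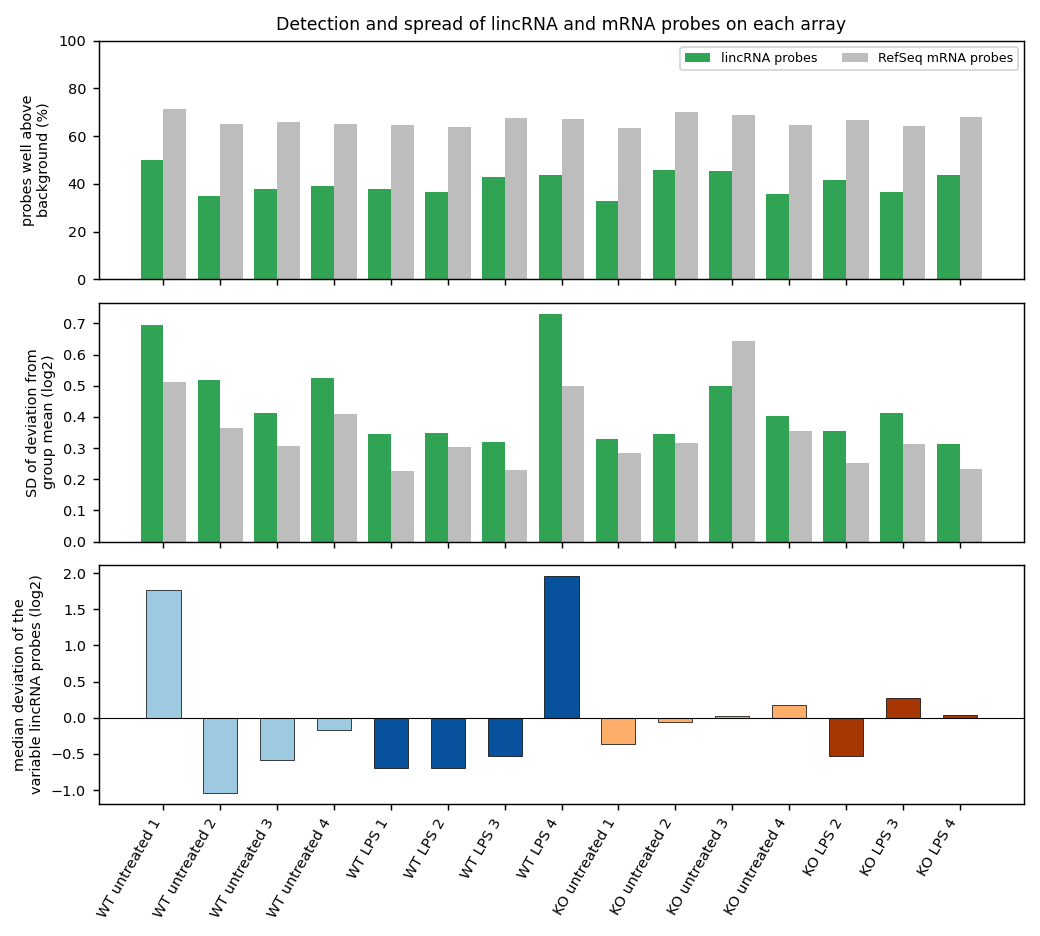
For each of the 15 arrays, the percent of lincRNA and mRNA probes well above background (top), the SD of their log2 deviations from the group mean (middle) and the median log2 deviation of the 499 variable lincRNA probes (bottom). On every array the lincRNA share, 32.9% to 50.2%, lies below the mRNA share, 63.3% to 71.5%, and the bottom bars reach 1.77 and 1.96 on untreated replicate 1 and LPS replicate 4 of the wild type.

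The kept lincRNA probes had a median level of -3.08, with the 5th to 95th percentile from -4.36 to 1.98. The median of the kept mRNA probes was 0.40, and 780 kept lincRNA probes (11.4%) lay above the 75th percentile of their arrays on average, against 53.7% of the mRNA probes. Levels of different probes also carry each probe's own labelling and binding, so the order of probes is no order of transcripts. Detection followed the region only in part. Of the 3261 strands with at least 3 probes, 518 had all of them kept and 676 had none. Where both strands of an interval had a kept probe (673 intervals), their mean levels differed by a median of 1.66, and by more than 3 in 184 intervals.

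Probes of strands that were kept in part were also less stable between wells. In strands with at least 3 probes, all kept, 3.50% of the 1943 probes had an SD within groups above 1. In strands with at most 50% of the probes kept, 9.61% of 2082 probes did. The 499 probes (7.28% of the members kept) with an SD above 1 lay a median of 1.77 above their group mean on the untreated wild type array of replicate 1, and 1.96 above it on the LPS array of replicate 4. For this reason results are given below for region strands in which several probes moved together. A value given under a probe's name is that of the probe alone.

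The brightest lincRNA probe was A_30_P01026458, the sole probe of chr11:22681800-22707775 R. It read 7.76, 8.21, 8.15 and 7.82 in untreated and 8.23, 8.26, 7.95 and 8.20 in LPS-treated wild type cells, and 8.32, 7.52, 7.66 and 7.79 in untreated and 8.12, 8.51 and 7.88 in LPS-treated knockout cells. The 4 groups overlapped, and neither LPS response passed the test (0.18 ± 0.19, SE, adjusted p = 0.47 in wild type; 0.35 ± 0.20, adjusted p = 0.162 in knockout). The other 9 of the 10 brightest probes had mean levels from 6.99 to 7.99 and lay on chromosomes 1, 4, 5, 7, 17 and 18. Of the 10, only A_30_P01024163 (chr1:175705225-175717250 R) rose with LPS in wild type cells, by 2.49 ± 0.20 (adjusted p = 1.52e-07). In knockout cells it rose by 2.78 ± 0.22 (adjusted p = 1.32e-07), and A_30_P01019512 (chr4:141100989-141106639 R) rose by 0.75 (adjusted p = 0.0161). The call of A_30_P01019512 held in 23 of 27 settings. It was lost under quantile normalisation and normexp, without LPS-treated knockout replicate 3 and in a fit on these 2 groups alone, with responses down to 0.14 (adjusted p up to 0.495). Each of these 10 probes has 1 LPS response per genotype, and 17 of these 20 changed sign under at least 1 other setting, so no direction is read from the small folds.

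LPS changed a large share of the lincRNA probes. In wild type cells 3303 of the 6857 kept probes passed the test (48.2%, limma with Benjamini-Hochberg adjustment over all 32558 probes kept), 2397 higher and 906 lower. Over all probes tested, 53.5% passed, 33.9% higher and 19.6% lower. At least 2-fold changes were seen in 1690 lincRNA probes (24.6%), 1136 up and 554 down, against 28.1% of all probes (17.1% up and 11% down). In knockout cells 3155 probes passed (46.0%), 2326 higher and 829 lower, against 51.8% of all probes (31.2% higher and 20.6% lower), and 1343 (19.6%) by at least 2-fold, 862 up and 481 down, against 26% of all probes (14.3% up and 11.6% down). Both lincRNA shares were below that of all probes, which include the lincRNA probes, and below the 59.6% and 58% of mRNA probes. The gap to all probes lay in the falls, with 13.2% of lincRNA probes lower in wild type and 12.1% in knockout cells. Rises, at 35% and 33.9%, were slightly above the shares of all probes. At 2-fold or more both directions were below them.

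How many calls were rises changed with the scaling. They made up 72.6% of the wild type and 73.7% of the knockout calls with the 75th percentile, 64.2% and 55.6% with quantile normalisation, 62.0% and 52.4% with normexp and quantile normalisation, and 60.7% and 49.5% in the authors' deposited table. The median lincRNA response was 0.28 in wild type and 0.47 in knockout cells, against 0.19 and 0.31 over all probes, and quantile normalisation brought the median over all probes to -0.01 and 0.05. The settings were run on 96 pairs of a probe and the comparison it was named for. Of these, only LPS responses of the 10 brightest probes switched sign.

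Agreement between the probes of a strand was counted over strands with several of them. Of 969 strands with at least 3 kept probes, all kept probes passed in the same direction in 139 strands that rose and 85 that fell in wild type cells (23.1%). In 62 strands probes passed in both directions, and in 168 none passed. In knockout cells 112 strands rose and 79 fell as a whole (19.7%), 35 were mixed and 210 had no call. Among 416 mRNA accessions with at least 3 kept probes, the whole moved one way in 32.2% in wild type and 32.0% in knockout cells.

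**Figure D2:**
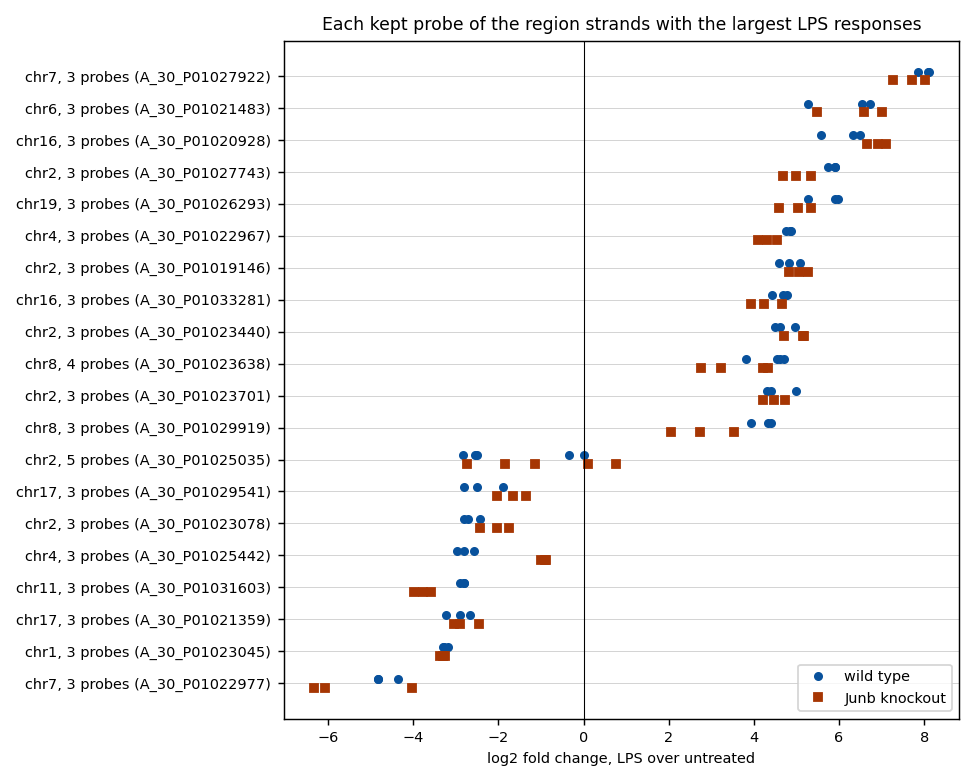
Log2 LPS response of each kept probe (horizontal) in the region strands with the largest responses (rows, by chromosome and first probe), with circles for wild type and squares for knockout cells. Within a row the probes lie on one side of 0, except in the strand of 5 probes on chromosome 2 that starts with A_30_P01025035.

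The strongest rise was at chr7:111530578-111539097 R, where all 3 probes were kept. Their mean log2 level was -2.90, -2.58, -2.97 and -2.47 on the untreated and 5.36, 5.29, 5.24 and 5.25 on the LPS-treated wild type arrays. In knockout cells it was -3.36, -3.03, -3.36 and -3.03 untreated and 4.50, 4.27 and 4.65 with LPS. Treated and untreated arrays were far apart in both genotypes, and with LPS every knockout array lay below every wild type array. The probes rose by 7.86 to 8.10 and, in the knockout, by 7.26 to 8.03. A_30_P01027922 rose by 8.10 ± 0.19 (adjusted p = 1.02e-12) and 8.03 ± 0.21 (adjusted p = 3.59e-12). With LPS the 3 probes were lower in knockout cells by 0.97, 0.91 and 0.56 on the log2 scale (A_30_P01027922 log2 difference -0.97, adjusted p = 0.00404). Without LPS, A_30_P01027922 was already lower in the knockout (log2 difference -0.89, adjusted p = 0.00695). None of the 3 passed the test of a difference in response. The estimates were -0.08, -0.38 and -0.59 in the same order (adjusted p = 0.9, 0.41 and 0.0578). Genes whose levels over the 15 arrays were most like A_30_P01027922 were Sp140, Calhm6, Parp10, Eif2ak2 and Ccl7, with Pearson correlations of 0.998 to 0.999 that are carried by the LPS step the arrays share.

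The next strand, chr6:57560819-57569928 F, was near the floor without LPS. Its 3 probes averaged -4.52, -4.15, -4.37 and -4.15 in untreated and 2.13, 1.69, 2.10 and 1.59 in LPS-treated wild type cells, and -4.52, -4.52, -4.27 and -4.52 in untreated and 1.94, 1.95 and 1.81 in LPS-treated knockout cells. The LPS-treated groups of both genotypes overlapped. A_30_P01030277 rose by 6.72 ± 0.18 (adjusted p = 3e-12) and 6.58 ± 0.19 (adjusted p = 1.18e-11). A_30_P01021483 was not well above background on any untreated knockout array and rose there at least 200.9-fold. Such a bound divides the mean of the higher group by a mean value for the arrays of the lower group. On each of these arrays the value is the limit of signals well above background, or the probe's own signal where that is larger.

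The locus at chr16:84702353-84710928 holds the host transcript of miR-155, by general knowledge of the mouse map that was not looked up here. miR-155 is a microRNA that LPS and AP-1 are known to induce in macrophages. All 13 probes of the locus were kept, and all 13 rose in both genotypes, by 1.89 to 6.48 in wild type and 1.37 to 7.10 in the knockout. None passed the test of a difference in response between the genotypes, with estimates from -0.60 to 1.52 on the log2 scale. The largest, for A_30_P01017643 of the R strand, was 1.52 ± 0.80 (adjusted p = 0.299). The 3 probes of the R strand averaged -3.24, -4.25, -3.30 and -3.62 untreated and 2.70, 2.25, 2.88 and 2.25 with LPS in wild type cells, and -4.06, -4.13, -3.68 and -4.10 untreated and 3.38, 2.39 and 2.92 with LPS in knockout cells. A_30_P01020928 was not above background on any untreated array and rose at least 100.4-fold in wild type and at least 103.5-fold in knockout cells, with a difference in the responses of 0.18 ± 0.40 on the log2 scale (adjusted p = 0.823).

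**Figure D3:**
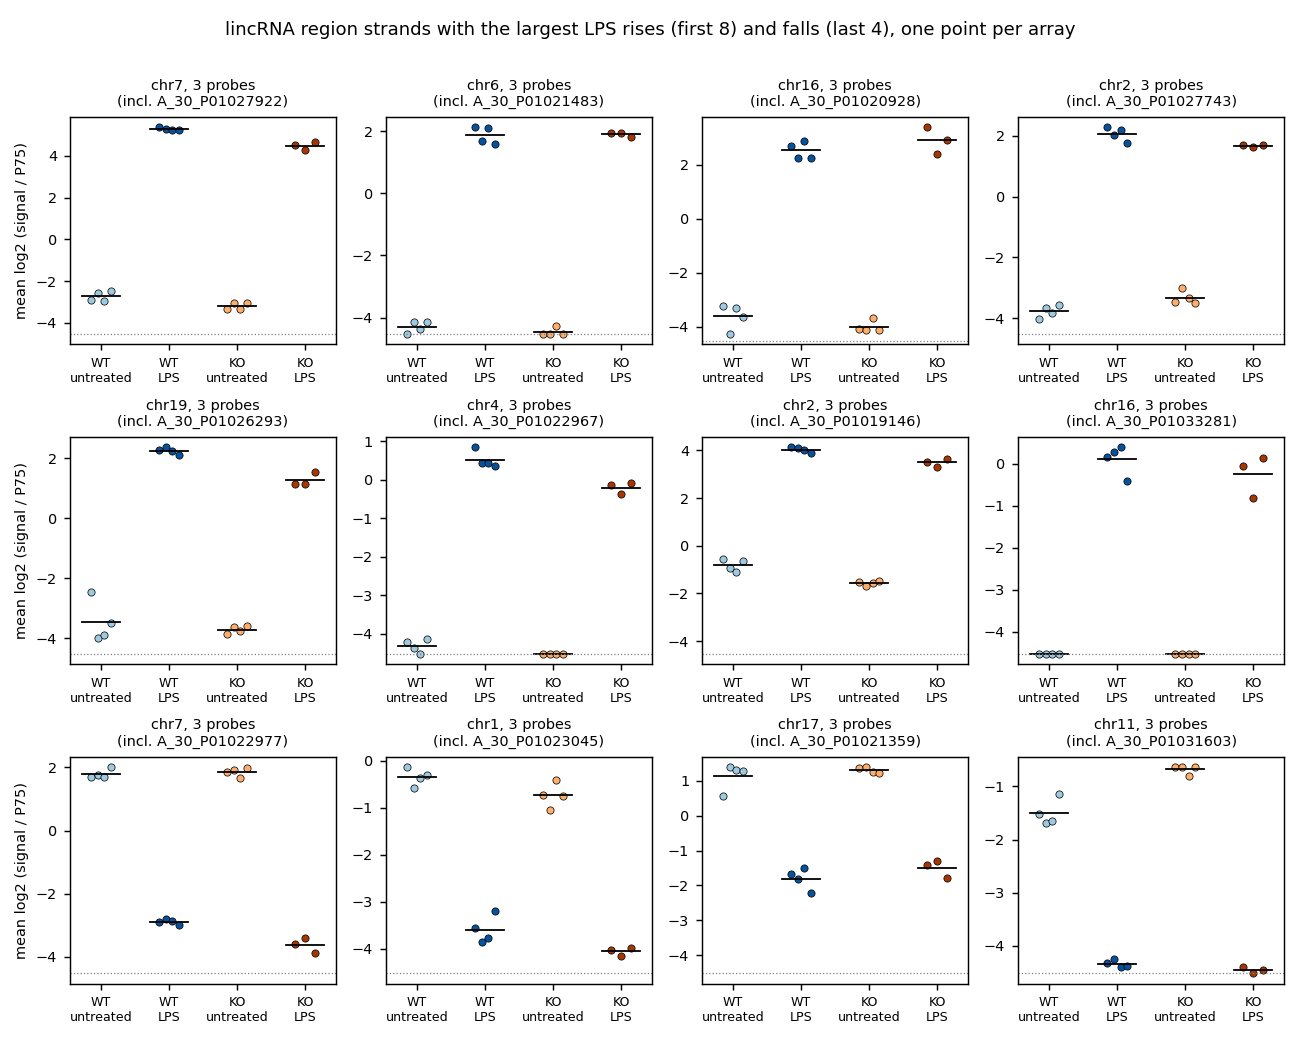
Mean log2 level over the kept probes of the leading region strands on each of the 15 arrays (points), by group, with bars at the group means and a dotted line at the floor of -4.52. At chr7:111530578-111539097 R the untreated arrays lie between -3.36 and -2.47 and the LPS arrays between 4.27 and 5.36.

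On chromosome 2 several short R intervals rose together in the neighbourhood of Bcl2l11, which encodes the pro-apoptotic protein BIM, and of Morrbid, a lincRNA known to repress it in myeloid cells (their places are general knowledge, not looked up here). At chr2:128142035-128142481 R the 3 probes averaged -4.03, -3.66, -3.83 and -3.58 untreated and 2.29, 2.04, 2.21 and 1.77 with LPS in wild type cells, and -3.47, -3.0, -3.33 and -3.51 untreated and 1.69, 1.63 and 1.69 with LPS in knockout cells. The LPS-treated knockout arrays all lay below the wild type ones. The probes rose by 5.73 to 5.91 in wild type and by 4.67 to 5.34 in knockout cells, and for A_30_P01029173 the responses differed (-1.06, adjusted p = 0.008). The differences of A_30_P01027743 (-0.93, adjusted p = 0.053) and A_30_P01026716 (-0.57, adjusted p = 0.282) did not pass. Further along, at chr2:128211990-128215223 R and chr2:128217275-128217972 R, all 6 probes were kept and rose by 4.50 to 5.08 in wild type and 4.70 to 5.28 in the knockout. The RefSeq probe for Morrbid, set beside them after their values were seen, rose by 5.58 ± 0.25 and 5.06 ± 0.28. Over the 15 arrays it correlated with the probes of the short R intervals with r between 0.965 and 0.996. Probes of the other strand, at chr2:128249388-128250301 F, gave r of 0.956, 0.776 and 0.986. The long interval chr2:127988295-128194920 followed Morrbid less closely. Its F probes gave r of 0.574 and 0.414, and its R probes 0.945, 0.751, 0.676 and 0.943. High correlations here are carried by the LPS step the arrays share. Bcl2l11 itself rose by 3.21 ± 0.14 and 2.59 ± 0.15.

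The strand chr1:152001112-152012796 R lies beside Ptgs2, the gene of the inducible prostaglandin synthase COX-2, at the place of lincRNA-Cox2, again by general knowledge. Of its 3 probes, 2 were kept. A_30_P01020139 read -4.32, -4.52, -4.52 and -4.45 untreated and 1.67, 1.36, 1.43 and 1.21 with LPS in wild type cells. In knockout cells it read -4.52, -4.24 and -4.52 untreated, with the marked spot of replicate 3 left out, and 0.11, -0.17 and 0.26 with LPS. With LPS the knockout arrays were all below the wild type arrays. The probe rose by 5.87 ± 0.13 (adjusted p = 2.44e-12) and 4.49 ± 0.15 (adjusted p = 1.21e-10), and the difference in response was -1.37 ± 0.20 (adjusted p = 0.00136). The other kept probe, A_30_P01032166, was above background on no untreated array and rose at least 52.52-fold and at least 25.8-fold (difference -1.01 on the floored scale, adjusted p = 0.00782). Ptgs2, looked up after these values were seen, rose by 8.85 ± 0.23 and 8.60 ± 0.25, and its difference of -0.26 did not pass (adjusted p = 0.7).

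Strands on chromosomes 4 and 8 also rose as a whole. The 3 probes of chr4:63736566-63744848 R rose by 4.76 to 4.88 in wild type and by 4.10 to 4.54 in knockout cells. The 4 probes of chr8:41934312-41945487 R rose by 3.80 to 4.71 and by 2.77 to 4.33.

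At chr19:46419916-46421753 F the mean level was -2.48, -4.00, -3.91 and -3.49 untreated and 2.27, 2.37, 2.23 and 2.09 with LPS in wild type cells, and -3.88, -3.63, -3.78 and -3.60 untreated and 1.13, 1.13 and 1.54 with LPS in knockout cells. The neighbouring interval on the other strand, chr19:46422690-46423478 R, moved the other way: its 3 probes fell by 0.74 to 0.95 in wild type and by 0.57 to 1.09 in knockout cells on the log2 scale. Opposite strands a short distance apart thus responded in opposite directions.

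At chr1:175705225-175717250 R, which also held 1 of the brightest probes, all 5 probes were kept. A_30_P01022549 read 1.75, 2.63, 2.53 and 2.37 untreated and 6.95, 6.49, 6.75 and 6.71 with LPS in wild type cells. In knockout cells it read 0.73, 1.05, 0.89 and 0.59 untreated and 6.62, 6.85 and 6.45 with LPS. The LPS levels of the genotypes overlapped and the untreated levels did not. The rise was 4.41 ± 0.18 in wild type and 5.83 ± 0.20 in the knockout (difference 1.42, adjusted p = 0.00691). For this probe untreated knockout cells were 1.51 lower on the log2 scale (log2 difference -1.51, adjusted p = 0.000115). A_30_P01024163 of the same strand did not pass in the untreated comparison (log2 difference -0.35, adjusted p = 0.296). Its difference in response did not pass either (0.29, adjusted p = 0.605). Of the 9 kept probes on both strands of the locus, 3 passed with a higher knockout response.

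The strongest fall was at chr7:16633756-16634410 F. Its 3 probes averaged 1.69, 1.76, 1.68 and 2.02 untreated and -2.88, -2.79, -2.87 and -2.99 with LPS in wild type cells, and 1.84, 1.93, 1.68 and 1.98 untreated and -3.60, -3.39 and -3.86 with LPS in knockout cells. The untreated groups overlapped, and with LPS every knockout array was lower. A_30_P01019086 changed by -4.83 ± 0.11 (adjusted p = 1.02e-12) and -6.33 ± 0.12 (adjusted p = 3.42e-13), with a difference of -1.49 (adjusted p = 0.00014). A_30_P01022977 changed by -4.84 and -6.08, the latter a fall of at least 74.57-fold, with a difference of -1.24 (adjusted p = 0.00151). The third probe, A_30_P01030378, changed by -4.36 and -4.03, and its difference of 0.33 did not pass (adjusted p = 0.566).

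Other strands fell less deeply. At chr1:137503023-137625604 R the mean level went from -0.13, -0.57, -0.36 and -0.31 to -3.56, -3.85, -3.78 and -3.19 in wild type and from -0.73, -1.04, -0.41 and -0.75 to -4.01, -4.15 and -3.98 in knockout cells. At chr17:71183978-71185384 F it went from 0.57, 1.40, 1.31 and 1.27 to -1.68, -1.80, -1.51 and -2.23 in wild type and from 1.37, 1.39, 1.25 and 1.21 to -1.41, -1.29 and -1.79 in knockout cells. At both, treated and untreated arrays were fully apart in each genotype.

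Among the lincRNA probes most LPS calls were shared by both genotypes. The same overlap was not counted over all probes, so it is not read as a trait of lincRNAs. Of the rises, 1713 probes passed in both, which is 71.5% of the wild type and 73.6% of the knockout rises. Of the falls, 644 passed in both (71.1% and 77.7%), and 16 probes passed in opposite directions. Over the 6857 probes the responses correlated with Pearson's r of 0.784 and Spearman's rho of 0.653, as a description across probes that share loci and are no independent replicates. The responses have no arrays in common.

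**Figure D4:**
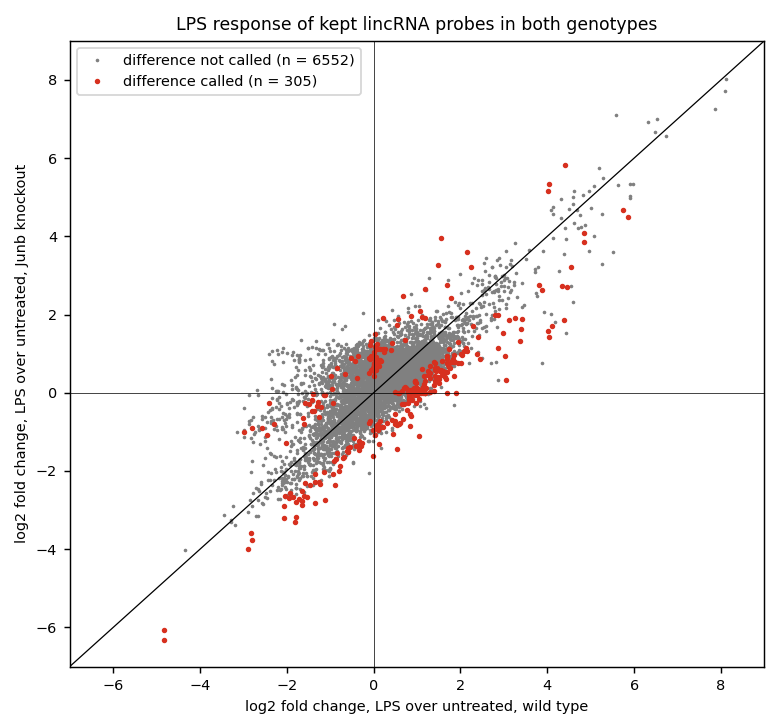
Log2 LPS response of the 6857 kept lincRNA probes in wild type (horizontal) and knockout cells (vertical). The 305 probes with a difference in response past the test are coloured and the rest are grey.

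The responses differed for 305 lincRNA probes (4.45%), with the knockout response higher in 97 and lower in 208. Over all probes 6.45% passed, 1.85% higher and 4.61% lower. The difference was at least 2-fold for 152 lincRNA probes (2.22%), 42 higher and 110 lower, against 3.36% of all probes (0.906% higher and 2.45% lower). The count was among the least stable here: leaving out 1 array gave 184 (without LPS-treated knockout replicate 3) to 529 (without untreated wild type replicate 4). Where a probe is at the floor in the untreated cells of both genotypes, the difference rests on the LPS arrays alone, so genotype cannot be told apart from slide there. Of the 969 strands with at least 3 kept probes, 4 were higher and 3 lower as a whole in this comparison (0.72%, against 1.20% of the 416 mRNA accessions), and in 840 no probe passed.

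The largest of these whole-strand differences was at chr13:15947521-15999246 R. The 5 probes, all kept, averaged -4.46, -4.52, -4.52 and -4.52 untreated and -0.86, -0.86, -0.76 and -1.20 with LPS in wild type cells. In knockout cells they averaged -4.34, -4.52, -4.20 and -4.52 untreated and -3.29, -3.13 and -2.54 with LPS. The LPS levels of the genotypes were fully apart and the untreated levels were at or near the floor. The knockout response was lower by 1.76 to 2.61 over the 5 probes (A_30_P01020126 -2.39 ± 0.23, adjusted p = 4.6e-05). That probe rose at least 32.63-fold in wild type and at least 6.49-fold in knockout cells. On the F strand of the interval 4 of 5 probes were kept, and 2 of them passed in the same direction, with differences of -1.08 (adjusted p = 0.032) and -1.53 (adjusted p = 0.0029). Inhba, the activin A subunit gene that to general knowledge lies on this stretch of chromosome 13, was looked up after these values were seen. It was above background on 1 of 4 untreated wild type arrays and on no untreated knockout array. With LPS it read 3.67, 3.55, 3.45 and 3.0 in wild type and 0.20, -0.34 and 0.30 in knockout cells, a log2 difference of -3.36 ± 0.20 (adjusted p = 9.84e-08).

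In the other direction, chr4:119406384-119407856 F fell less in knockout cells. Its mean level was 0.23, 0.04, 0.03 and 0.73 untreated and -2.76, -2.96, -2.53 and -1.88 with LPS in wild type cells, and 0.27, 0.24, 0.56 and 0.15 untreated and -0.70, -0.51 and -0.68 with LPS in knockout cells. The untreated groups overlapped, and the LPS-treated knockout arrays all lay above the wild type ones. The differences were 1.98 ± 0.36 for A_30_P01025442 (adjusted p = 0.00506) and 1.91 ± 0.34 for A_30_P01033238 (adjusted p = 0.00495). For A_30_P01025442 the call was lost in the authors' deposited table (adjusted p = 0.0952).

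At chr9:65368908-65377592 R the genotypes were farthest apart in untreated cells. The mean level was -0.71, -0.96, -0.83 and -0.61 untreated and -3.36, -3.11, -3.44 and -2.76 with LPS in wild type cells, against -2.95, -2.74, -3.07 and -2.34 untreated and -3.64, -3.34 and -3.16 with LPS in knockout cells. Untreated knockout levels were all below untreated wild type ones, and the mean LPS levels overlapped. A_30_P01024579 was lower in untreated knockout cells (log2 difference -2.18 ± 0.20, adjusted p = 1.12e-05), with a difference in response of 1.37 (adjusted p = 0.0143). It was also lower with LPS (log2 difference -0.81, adjusted p = 0.015), without overlap of the arrays.

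At chr11:112905201-113062945 R the untreated knockout arrays, at -0.64, -0.64, -0.80 and -0.63, lay above the wild type arrays at -1.51, -1.69, -1.65 and -1.13. With LPS the strand was near the floor in both, at -4.32, -4.25, -4.41 and -4.38 in wild type and -4.40, -4.52 and -4.46 in knockout cells. A_30_P01031603 fell at least 10.16-fold in wild type and at least 18.56-fold in knockout cells. It was above background on no LPS array of either genotype, so both responses were limited by the floor. The difference in response of -0.95 is the untreated difference of 0.95 with its sign turned.

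The other strands that moved as a whole were of smaller range. At chr5:22887983-22939658 R the level rose from -1.54, -1.79, -1.66 and -1.32 to 0.17, 0.41, 0.16 and 0.04 in wild type, and from -2.19, -1.95, -2.19 and -2.53 to -1.45, -1.80 and -1.31 in knockout cells. At chr10:66383049-66386347 F it was -4.39, -4.46, -4.39 and -4.24 untreated and -3.87, -4.19, -4.17 and -4.20 with LPS in wild type cells, and -4.22, -4.02, -4.17 and -4.44 untreated and -2.17, -2.72 and -2.48 with LPS in knockout cells. At chr1:59773381-59775888 F it was -3.24, -3.37, -3.46 and -3.08 untreated and -3.78, -3.85, -3.53 and -3.93 with LPS in wild type cells, and -3.03, -3.12, -2.92 and -3.15 untreated and -2.18, -2.36 and -2.28 with LPS in knockout cells. The last of these went down with LPS in wild type and up in knockout cells, on every array.

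**Figure D5:**
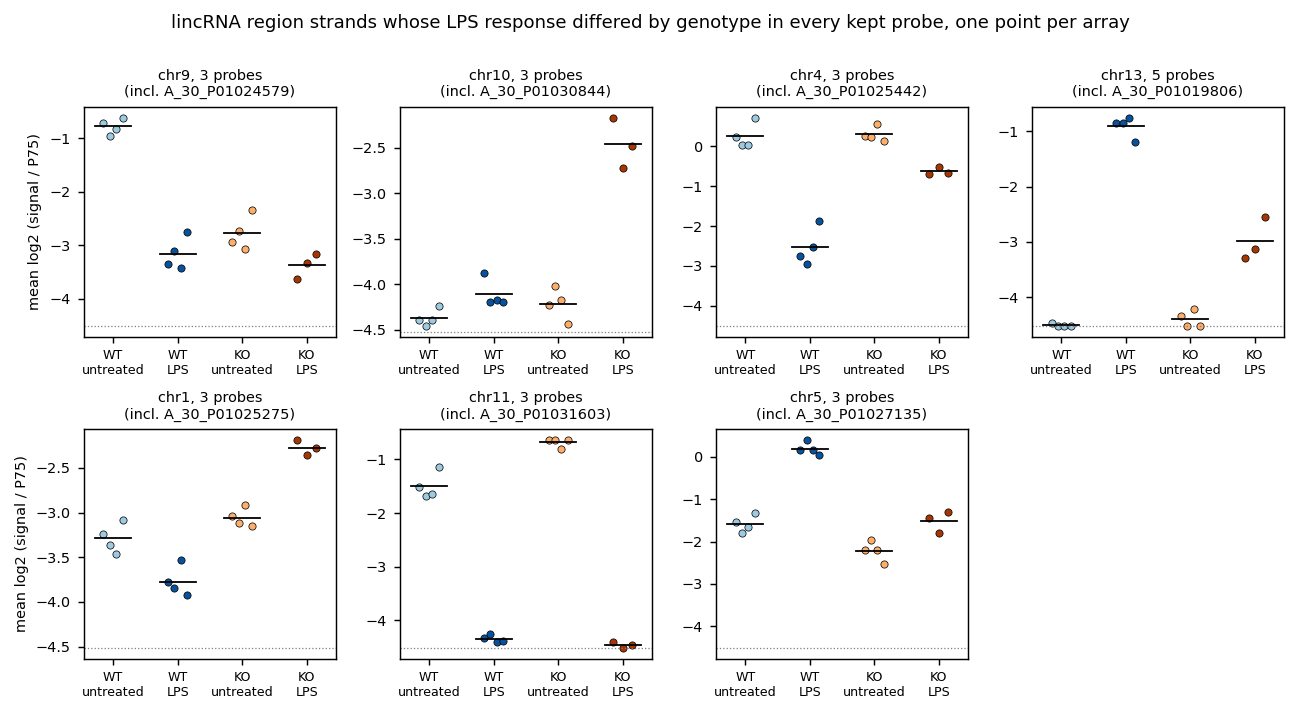
Mean log2 level over the kept probes of region strands in which every kept probe passed the test of the difference in response, on each array (points), by group, with bars at the group means and a dotted line at the floor of -4.52. At chr13:15947521-15999246 R the LPS-treated wild type arrays lie between -1.20 and -0.76 and the LPS-treated knockout arrays between -3.29 and -2.54.

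Single probes differed by as much. A_30_P01023533 (chr8:126268510-126290810 R) was at the floor on all untreated arrays. With LPS it read -1.45, -0.96, -1.18 and -2.25 in wild type and -4.00, -4.52 and -4.07 in knockout cells. It rose at least 15.37-fold in wild type cells, while the knockout response of 0.32 ± 0.23 did not pass (adjusted p = 0.268), and the difference was -2.74 ± 0.32 (adjusted p = 2e-04). A_30_P01023533 was kept through the LPS-treated wild type group alone, so its wild type rise and this difference are tied to the selection. A_30_P01020131 (chr17:56687541-56694631 R), above background on no untreated array, rose at least 32.55-fold in wild type and at least 5.87-fold in the knockout (difference -2.44 on the floored scale, adjusted p = 6.05e-05). A_30_P01027703 (chr18:36072785-36076426 F) rose by 4.38 and 1.86 (difference -2.52, adjusted p = 0.000499). Most other probes of these loci did not follow or were not kept. In the locus of A_30_P01023533, 3 of 12 kept probes passed with a lower knockout response. In that of A_30_P01020131, 1 of 12 did. A_30_P01027703 was the only kept probe of the 3 on its strand.

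A_30_P01030189 (chr8:74473445-74496948 F) passed in opposite directions. It read -3.06, -2.98, -3.06 and -3.09 untreated and -2.0, -1.69, -2.11 and -2.20 with LPS in wild type cells, and -2.71, -2.52, -3.12 and -2.99 untreated and -4.13, -4.22 and -3.43 with LPS in knockout cells. The response of 1.05 in wild type stood against -1.09 in the knockout (difference -2.14, adjusted p = 0.000379). Treated and untreated arrays did not overlap in either genotype.

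Among the probes that responded more in knockout cells, A_30_P01020208 (chr8:70603786-70604243 R) rose by 1.55 in wild type and by 3.96 in the knockout (difference 2.41, adjusted p = 0.00347). A_30_P01022510 (chr10:96103732-96103867 F) read 0.10, -0.69, -0.44 and 0.06 untreated and 0.37, 0.32, 0.43 and 0.61 with LPS in wild type cells, and -1.50, -1.36, -1.19 and -1.33 untreated and 1.14, 1.10 and 1.15 with LPS in knockout cells. It rose by 0.67 and 2.47 (difference 1.80, adjusted p = 0.000514), from a lower untreated and to a higher LPS level in the knockout. Of the 11 kept probes in the locus of A_30_P01022510, only this 1 passed the test of a difference. Both calls were lost in 1 other processing each, with adjusted p = 0.0516 for A_30_P01020208 at the lower floor and 0.0967 for A_30_P01022510 in the deposited table.

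Without LPS, 818 lincRNA probes differed between knockout and wild type (11.9%), 558 higher and 260 lower in the knockout, against 13.5% of all probes (8.62% higher and 4.91% lower). At least 2-fold differences were found for 241 (171 higher and 70 lower), against 3.67% of all probes (2.39% higher and 1.28% lower). With LPS, 1445 differed (21.1%), 693 higher and 752 lower, against 25.8% of all probes (10.6% higher and 15.1% lower), and 459 by at least 2-fold (233 higher and 226 lower), against 7.63% (3.6% higher and 4.03% lower). Whole strands were few. Without LPS, 6 of 969 were higher and 6 lower as a whole, and with LPS 8 were higher and 26 lower. These are 1.24% and 3.51% of the strands, against 1.20% and 5.29% of the 416 mRNA accessions.

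A_30_P01029182, the sole kept probe of 5 at chr4:118723941-118757032 R, was higher in the knockout in both states. It read 0.46, -0.64, -0.16 and -0.56 untreated and 0.51, 0.09, 0.16 and 0.34 with LPS in wild type cells, and 2.38, 2.32, 2.78 and 2.32 untreated and 3.17, 3.45 and 3.05 with LPS in knockout cells. The genotypes did not overlap, and the differences were 2.68 (adjusted p = 3.4e-06) and 2.95 (adjusted p = 1.63e-06). The single probes A_30_P01023414 (chr14:99656262-99656858 R), A_30_P01018253 (chr13:41337973-41379821 R) and A_30_P01024370 (chr3:37543523-37613073 F) were higher by 2.73, 2.54 and 2.51 without and by 3.04, 2.30 and 2.21 with LPS. Of their strands 1 of 2, 6 of 10 and 2 of 3 probes were kept, in the same order. The strand on chromosome 13 was not among those that differed as a whole without LPS.

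A_30_P01018999 (chr15:8463685-8494960 F) was lower in the knockout in both states. It read 5.21, 4.69, 4.95 and 5.18 untreated and 5.61, 5.28, 5.42 and 5.84 with LPS in wild type cells, and 2.78, 2.84, 3.11 and 3.16 untreated and 3.55, 3.64 and 3.65 with LPS in knockout cells. The differences were -2.03 (adjusted p = 1.54e-06) and -1.92 (adjusted p = 2.84e-06). In the deposited table the untreated difference of A_30_P01018999 kept its direction and lost its call (adjusted p = 0.381).

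A_30_P01026926 (chr8:71495043-71525582 R) read -3.22, -3.22, -3.38 and -3.77 untreated and was at the floor on all LPS-treated arrays of wild type cells. In knockout cells it read -1.74, -1.54, -1.78 and -1.54 untreated and -1.58, -1.65 and -1.86 with LPS. It was higher in the knockout by 1.75 without LPS, and at least 9.93-fold with LPS (adjusted p = 1.57e-08). The strand chr15:62046023-62082530 F was also higher in untreated knockout cells, at -0.68, -1.05, -1.14 and -1.33 against -2.90, -2.78, -2.67 and -2.47.

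The largest of the lower levels with LPS rested on 3 of 4 wild type arrays. A_30_P01024113 (chr8:35143801-35144482 F) read 0.38, 0.96 and -0.03 on LPS-treated wild type replicates 1 to 3 and -3.89 on replicate 4, against -3.24, -3.56 and -4.49 in knockout cells. The difference was -3.12 (adjusted p = 0.0142), and replicate 4 fell within the knockout range. The call was lost without LPS-treated knockout replicate 4 (adjusted p = 0.0557) and in a fit on these 2 groups alone (adjusted p = 0.107). A_30_P01033354 (log2 difference -2.79, adjusted p = 0.018) and A_30_P01019220 (-2.46, adjusted p = 0.0182) showed the same gap of replicate 4 to the other 3. They kept their calls in 24 of 28 settings (adjusted p up to 0.115) and in 23 of 27 (adjusted p up to 0.119). Both lost them without LPS-treated wild type replicate 2, knockout replicate 3 or knockout replicate 4, and in the fit on these 2 groups. Without that wild type array the differences were -4.20, -3.79 and -3.36 for the 3 probes.

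For comparison, a list of genes of the inflammatory response was measured on the same arrays. It holds, among others, cytokines, chemokines, NF-kB and AP-1 members and their inhibitors, other transcription factors and surface proteins. The list was chosen with earlier results of these data known. Of its 58 genes 57 were measured. In wild type cells 48 rose, 7 fell and 2 did not pass, with a median of 2.54, and in knockout cells 43 rose, 8 fell and 6 did not pass, with a median of 2.56. In the difference of the responses 5 were higher and 8 lower in the knockout. Over all probes, 33.9% rose and 19.6% fell in wild type, and 31.2% rose and 20.6% fell in knockout cells. In the difference 1.85% of all probes were higher and 4.61% lower. The list includes Junb, the deleted gene, which was at the floor on all knockout arrays. Junb is therefore among the genes that did not pass in the knockout. It is also among the 8 lower ones (difference -2.54, adjusted p = 1.25e-05), and its wild type response of 2.54 is the median. Of the nuclear lincRNAs with RefSeq probes, Malat1, an RNA of splicing speckles, changed by -1.37 in wild type and by -1.23 in the knockout. Neat1, the scaffold of paraspeckles, changed by -0.62 and -0.67 on the log2 scale, and all 4 values passed the test.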

How the data were processed

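The 15 single-colour arrays (Agilent design with 8 arrays per slide) were read from the scanner files. Per the file headers Agilent Feature Extraction 10.7.3.1 quantified the spots, and the processed signal is a background-subtracted intensity on a linear scale. A value table deposited by the authors contains log2 values. All 15 of its columns ranked best with its own array (lowest Spearman correlation 0.968), and its column medians of 6.25 to 6.27 were nearly equal. Its exact normalisation is not given in the sources used here, and it served as an alternative only.

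Control spots were left out and 4827 spots marked as non-uniform or outliers were set to missing, 625 of them on lincRNA probes. The processed intensity was scaled to the 75th percentile of each array, then raised to a common floor of 0.0436 of it (-4.52 in log2), the highest of the arrays' limits of signals well above background, before log2 was taken. The 32558 probes with at least 3 arrays of a group well above background were tested with limma 3.58.1 in R 4.3.3 (with the package data.table, version 1.17.8). The model had 4 group means over all arrays, and p-values were adjusted by Benjamini-Hochberg over all probes tested, at 0.05. Errors of folds are standard errors (SE). The scripts were tested on simulated data. The number of arrays limits the precision, and dim probes are limited further by their distance from background.

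The probes named were the 10 brightest, the 12 largest rises and 8 largest falls per LPS response with non-overlapping groups, the 6 largest in each direction in the other comparisons, and loci with at least 3 kept probes. Members and lists were chosen with earlier results of these data known. A planned comparison with genes within 100 kb was not made, because gene positions on mm9 were not used here, and no sequence is shown. Gene symbols came from a RefSeq table matched by accession.

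Deviations of same-numbered untreated and LPS arrays correlated between -0.577 and 0.588, and those of untreated wild type and knockout arrays between -0.413 and -0.082, so the numbers did not pair these wells. Same-numbered LPS arrays of the 2 genotypes correlated by 0.452, 0.228 and 0.206, which meets the criterion for pairing (every pair over 0.1), although the labels name no shared source. Alternatives were quantile normalisation, normexp with an offset of 50 followed by quantile normalisation, floors at 0.5 and 2 times the main one, no filter, a stricter filter, marked spots kept, the deposited table, a replicate block, fits on the groups compared only, and each array left out. Untreated knockout replicate 3, untreated wild type replicate 1 and LPS-treated wild type replicate 4 were also left out together. A robust estimate of the spread was added after seeing the data.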

Additional observations from a re-analysis of the deposited data

Results flagged for a closer look

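Among 182 groups of 4 arrays, one for each named probe and group, 20 held an array far from the other 3 by Dixon's criterion. Chance flags about 1 in 20 groups of values that are free of the floor. Where the other 3 arrays lie at the floor, any departure is flagged, however small. The count therefore cannot be set against that rate. Of the 20, 6 were on untreated knockout replicate 3, 4 on LPS-treated wild type replicate 4, 4 on untreated wild type replicate 4, 2 on untreated wild type replicate 1, 2 on untreated knockout replicate 1, and 1 each on untreated knockout replicate 2 and LPS-treated wild type replicate 3. Each value below is a log2 level, followed by that of the nearest array of the group. No explanation was tested.

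Untreated knockout replicate 3 lay apart for A_30_P01030277 at -3.79 (nearest -4.52), A_30_P01020208 at -4.42 (nearest -4.52), A_30_P01022596 at -2.93 (nearest -4.52), A_30_P01023414 at -0.55 (nearest -0.87), A_30_P01029182 at 2.78 (nearest 2.38) and A_30_P01019220 at -4.17 (nearest -4.52). LPS-treated wild type replicate 4 lay apart for A_30_P01023847 at -2.40 (nearest -2.89), A_30_P01018137 at -3.53 (nearest -4.47), A_30_P01020131 at -0.98 (nearest -0.42) and A_30_P01019220 at -4.35 (nearest -0.997). The gap of A_30_P01019220 was the widest of the 20. For several others the nearest array was at the floor.

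Untreated wild type replicate 4 lay apart for A_30_P01027743 at -4.12 (nearest -4.50), A_30_P01025442 at 2.18 (nearest 1.30), A_30_P01031483 at -2.91 (nearest -3.21) and A_30_P01024579 at -0.0519 (nearest -0.42). Untreated wild type replicate 1 lay apart for A_30_P01020208 at -3.43 (nearest -4.52) and A_30_P01023414 at -2.42 (nearest -3.80). Untreated knockout replicate 1 lay apart for A_30_P01024579 at -2.83 (nearest -2.43) and A_30_P01033354 at -4.40 (nearest -4.52). Untreated knockout replicate 2 lay apart for A_30_P01021031 at -4.42 (nearest -4.52), and LPS-treated wild type replicate 3 for A_30_P01030669 at 7.495 (nearest 8.04).

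The LPS response differed between genotypes by the interaction test for 12 named probes, the 6 largest in each direction among those that passed. The knockout response was higher, on the log2 scale, by 2.41 for A_30_P01020208, 2.15 for A_30_P01018137, 1.98 for A_30_P01025442, 1.91 for A_30_P01033238, 1.80 for A_30_P01022510 and 1.80 for A_30_P01025612, the last of which lost its call in 13 other settings. The difference was -2.74 for A_30_P01023533, -2.61 for A_30_P01022596, -2.52 for A_30_P01027703, -2.44 for A_30_P01020131, -2.39 for A_30_P01020126 and -2.14 for A_30_P01030189.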

How the results depend on the processing

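Dim probes limit these results: a fold into the floor understates the change. Counts within 1.5 times the main one are not listed. Of the values of named probes under alternatives, 2449 kept direction and side of the threshold, 40 lost their call, 8 gained one and 48 changed sign, all 48 among LPS responses of the 10 brightest probes.

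The 305 probes with different LPS responses became 185 under quantile normalisation, 132 under normexp, 199 with the floor at 0.5 times, 51 in the deposited table and 508 without untreated knockout replicate 3, untreated wild type replicate 1 and LPS-treated wild type replicate 4 together. Over single arrays left out this count ranged from 184 (without LPS-treated knockout replicate 3) to 529 (without untreated wild type replicate 4), and it was 197 without untreated wild type replicate 3. The 818 untreated genotype differences became 529 with the floor at 2 times and 363 in the deposited table, and ranged from 594 to 909 over arrays left out. The 1445 genotype differences with LPS became 795 in the deposited table, and ranged from 896 (without LPS-treated knockout replicate 3) to 1596. The LPS calls ranged from 2976 to 3360 in wild type and from 2687 to 3306 in knockout cells over arrays left out, and the knockout count was 1712 in the deposited table, which lists fewer probes. With the replicate block the 5 counts were 3304, 3217, 218, 766 and 1357, in the order wild type LPS, knockout LPS, difference, untreated and LPS genotype comparison, and it changed no call of the 96 pairs of a named probe and comparison. The causes were not tested.

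The changes of sign were as follows, as log2 LPS responses. Under quantile normalisation the wild type values were -0.25 (A_30_P01026458), -0.30 (A_30_P01032822), -0.18 (A_30_P01019512), -0.27 (A_30_P01030669), -0.41 (A_30_P01029701), -0.40 (A_30_P01022075), -0.55 (A_30_P01032672) and -0.36 (A_30_P01029358). The knockout values were -0.24 (A_30_P01026458), -0.11 (A_30_P01032822), -0.31 (A_30_P01030669), -0.13 (A_30_P01029701), -0.59 (A_30_P01022075), -0.61 (A_30_P01025369), -0.0856 (A_30_P01032672) and -0.40 (A_30_P01029358). Under normexp the wild type values were -0.38, -0.36, -0.26, -0.41, -0.56, -0.39, -0.71 and -0.25 in the same order of probes, and the knockout values -0.22, -0.11, -0.31, -0.12, -0.57, -0.61, -0.0845 and -0.41. In the deposited table A_30_P01032822 gave -0.37 and -0.14, A_30_P01029358 -0.25 and -0.41, and A_30_P01025369 -0.61 in the knockout. Without these 3 arrays together, A_30_P01032822 gave -0.0808 in wild type and A_30_P01030669 -0.0116 in the knockout. Over single arrays left out, the wild type values ranged from -0.0190 to 0.29 (A_30_P01032822), -0.45 to 0.61 (A_30_P01029701), -0.12 to 0.0549 (A_30_P01025369, where values of 0.0486, 0.00756 and 0.00393 also changed sign) and -0.93 to 0.57 (A_30_P01032672, also -0.0619), and the knockout values from -0.0116 to 0.42 (A_30_P01030669).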
